A study of Mus musculus with 12 samples.

Results

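The miR-34 and miR-449 microRNAs form 1 seed family, and 4 of its members were followed here across 4 mouse breast cancer cell lines: mmu-miR-34a, mmu-miR-34b-5p, mmu-miR-34c and mmu-miR-449a. They were found by their miRNA name in the array annotation and are 4 of the 577 mouse miRNAs on the array. Total RNA was measured on 12 one-colour Agilent miRNA arrays, 3 per line. All 4 lines are labelled as wild type and as derived from a spontaneous breast cancer of female BALB/c mice, and no agent was given. The lines 67NR, 168FARN and 4TO7 are labelled non-metastatic and the line 4T1 metastatic, and the series sets the 3 former against the latter as steps of metastasis. Each step is represented by a single line, so step and line cannot be told apart. The labels number the 3 arrays of a line as repeats and are silent on whether these came from different cultures. A p-value here therefore reflects array-to-array spread within a line, which could be technical.

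MicroRNAs are short RNAs that pair with messenger RNAs, mainly through the seed near their 5′ end, and lower their stability and translation. The miR-34 genes are known as direct targets of the tumour suppressor p53, and their products repress genes of cell cycle entry and survival such as Cdk4, Cdk6, Ccnd1, Bcl2 and Met. The miR-449 genes are known as targets of the cell cycle factor E2F1. Together with miR-34b and miR-34c they are abundant in multiciliated epithelial cells, where they promote exit from the cell cycle and the formation of cilia.

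The mature sequences are shown because the shared seed defines the family and the remaining bases tell its members apart. The mature sequences taken from RefSeq (GRCm38.p6) covered 3 of the 4 members and also miR-449c, which had probes on the array. That of miR-34c-5p was missing from the set used here. The seed, bases 2 to 8 from the 5′ end, is in capitals.
miR-34a-5p: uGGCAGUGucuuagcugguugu
miR-34b-5p: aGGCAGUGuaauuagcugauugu
miR-449a-5p: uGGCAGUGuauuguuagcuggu
miR-449c-5p: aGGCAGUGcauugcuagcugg
In the table, which is not complete, 4 of 1679 mature mouse miRNA names had the seed GGCAGUG. Beyond the seed they differed. Counted from the 5′ end without gaps, miR-34a and miR-449a shared 7 of the 14 positions after base 8, miR-34a and miR-34b-5p shared 4 of 14, and miR-34b-5p and miR-449a shared 3 of 14.

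The miR-34b precursor is printed with both mature arms in capitals, since the array carried probes to either arm and their readings differed.
Mir34b: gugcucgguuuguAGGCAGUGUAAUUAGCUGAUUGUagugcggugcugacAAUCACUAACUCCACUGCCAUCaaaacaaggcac
The 3′ arm has another seed, AUCACUA, and the table gave that seed to 2 mature miRNAs, miR-34b-3p and miR-34c-3p.
miR-34b-3p: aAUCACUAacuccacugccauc
miR-34c-3p: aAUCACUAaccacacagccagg

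The members come from 3 loci. In GRCm38.p6 the mature miR-34a-5p lies at chr4:150068473-150068494 on the plus strand, miR-34b-5p at chr9:51103610-51103632 on the minus strand and miR-449a-5p at chr13:113037549-113037570 on the plus strand. In mm9, the build of the array annotation, the probe targets of miR-34c (chr9:50911181-50911200) and miR-34b-5p (chr9:50911715-50911736) are separated by 514 bases. In the RefSeq annotation Btg4 and Hoatz overlapped Mir34b and Mir34c, and all 3 miR-449 hairpins lay within Cdc20b. No gene overlapped Mir34a.

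A probe was counted as read on an array when most of its spots were marked well above background, and each member had 2 probes with 10 spots each. Levels are log2 of the brighter probe's signal after each array was divided by its own reference percentile. Values under a common floor of -5.58 (log2) were set to it and have no order among themselves. Levels of different members are not compared, since probes differ in brightness. The 67NR arrays stood apart from the rest. Across the 224 miRNAs tested, arrays of 1 line correlated at r = 0.993 or more, 67NR arrays correlated with those of other lines at 0.539 to 0.636, and arrays of different lines among the other 3 at 0.837 to 0.965. The percentile used for scaling was lowest for 67NR, at 358 to 460 signal units, against 600 to 1213 units for the other lines. One slide held the 3 arrays of 67NR and 1 of 168FARN, and the other slide held the remaining 8 arrays. None of the 7 epithelial marker miRNAs, the miR-200 family with miR-203 and miR-205, was read on all arrays of any line. Their summed signal was 28.1 units in 67NR, where miR-200c and miR-141 were each read on 1 array, and between -4.76 and 1.53 units in the 3 other lines, so the miRNAs that define epithelial cells were unread or at the edge of detection.

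The 4 members did not share a profile. 168FARN was the single line in which all 4 were read on all 3 arrays. In 67NR miR-34a was read and the other 3 members on no array. In 4TO7 miR-449a was read and the other 3 on no array. In 4T1 miR-34a was read on all 3 arrays and miR-449a on 2, with miR-34b-5p and miR-34c on none.

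**Figure D1:**
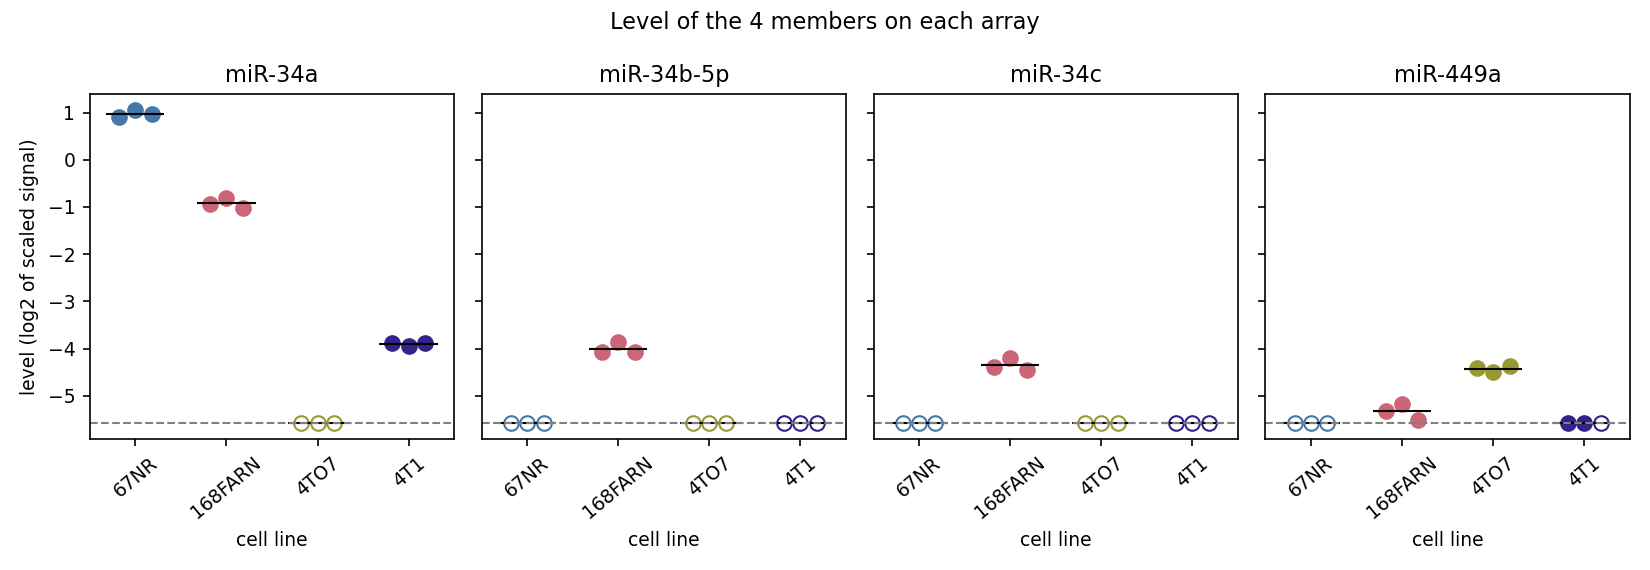
Level of each member on each array (vertical axis, log2 of the scaled signal) by cell line (horizontal axis). Points are arrays, filled where the probe was read and open where it was not, bars are line means, and the dashed line is the floor at -5.58. All 4 panels hold filled points above the floor in 168FARN, and only the miR-34a panel does in 67NR and 4T1.

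miR-34a is the member known to be expressed in most tissues. Its line means spanned 6.55 (log2), against 1.58 for miR-34b-5p, 1.24 for miR-34c and 1.15 for miR-449a. The 3 others were read close to the floor, which caps their range, so these spans do not rank the members. Its signal was 856, 933 and 696 units on the 67NR arrays and 633, 528 and 391 units on the 168FARN arrays. It was 74.3, 74.0 and 60.3 units on the 4T1 arrays and 5.28, 5.54 and 6.35 units on the 4TO7 arrays. No spot of it was well above background in 4TO7, while all spots kept were in 67NR. The arrays of different lines did not overlap, and the order was 67NR, 168FARN, 4T1 and then 4TO7.

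After scaling, the miR-34a level was 0.97 ± 0.08 (SD, n = 3) in 67NR, -0.92 ± 0.10 (SD, n = 3) in 168FARN and -3.90 ± 0.03 (SD, n = 3) in 4T1, and it was at the floor in 4TO7. Every neighbouring pair in this order differed beyond its spread. miR-34a was 3.72-fold higher in 67NR than in 168FARN, a log2 difference of 1.90 ± 0.05 (SE, limma adjusted p = 1.25e-11). It was 7.87-fold higher in 168FARN than in 4T1, a log2 difference of 2.98 ± 0.05 (SE, limma adjusted p = 5.73e-13). In 4T1 it was at least 2.82-fold higher than in 4TO7 (limma adjusted p = 2.76e-10).

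The size of that last step depended on the processing, since 4TO7 was unread. The 4TO7 minus 4T1 difference in miR-34a was -1.68 as reported, -0.27 under normexp background correction (limma adjusted p = 0.00225), -0.68 with the floor doubled (limma adjusted p = 3.83e-06) and -0.71 with the second probe (limma adjusted p = 5.19e-07). The largest, -3.13, came from the scanner software's total gene signal (limma adjusted p = 4.18e-10). The direction and the call held under each of these.

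Across the wider steps of that order, miR-34a was 29.3-fold higher in 67NR than in 4T1, a log2 difference of 4.87 ± 0.05 (SE, limma adjusted p = 5.11e-15). Against 4TO7 it was at least 82.7-fold higher in 67NR (limma adjusted p = 6.08e-16) and at least 22.2-fold higher in 168FARN (limma adjusted p = 1.51e-14). Ranked by the signed difference, miR-34a was first of the 224 tested miRNAs in 67NR minus 4TO7 and in 168FARN minus 4TO7. It ranked 7 in 67NR minus 4T1, 12 in 168FARN minus 4T1 and 49 in 67NR minus 168FARN. Without scaling the difference between 67NR and 168FARN was 0.70 ± 0.17 (SE, limma adjusted p = 0.00107), or 1.62-fold, while the median of all tested miRNAs moved by -0.41. The unscaled 67NR minus 4T1 difference was 3.57 (limma adjusted p = 3.31e-12), or 11.9-fold. For 67NR minus 4TO7 it was 5.86 (limma adjusted p = 9.61e-15), or 58.3-fold, so the bound of 82.7-fold holds only with the scaling used.

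The slide that held 67NR with 1 array of 168FARN gave 1.91 for the same miR-34a difference (limma adjusted p = 0.00152), and a term for slide in the fit also gave 1.91 (limma adjusted p = 2.84e-09). On that slide the single 168FARN array has no spread of its own and is assumed to vary like the 67NR arrays, so the first of these p-values rests on 67NR alone. On the slide with the other 8 arrays, 168FARN exceeded 4TO7 by 4.66 (limma adjusted p = 1.33e-10) and 4T1 by 2.98 (limma adjusted p = 8.47e-10). 67NR shared no slide with 4TO7 or 4T1, so a slide term alone could be tried there, and it gave 6.57 and 4.89 (limma adjusted p = 4.43e-12 and 2.74e-11). The slide term is estimated from 168FARN alone, the only line on both slides, as 1 array against 2. It therefore cannot settle how much slide adds to these differences.

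**Figure D2:**
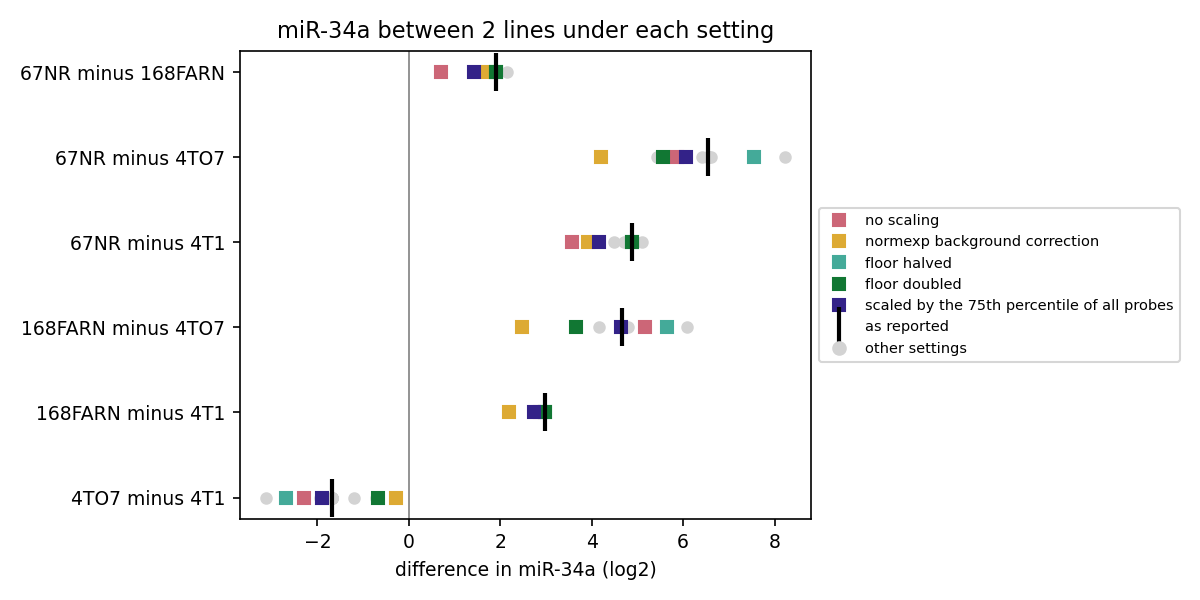
Difference in miR-34a between 2 lines (horizontal axis, log2) for each pair (vertical axis) as reported and under each alternative setting other than leaving out an array. Every point of a pair lies on the same side of 0; the widest spread is in 67NR minus 4TO7, from 4.19 to 8.24, and the 67NR minus 168FARN points run from 0.70 to 2.15.

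miR-34b-5p and miR-34c, the products of the chromosome 9 locus, were read in 168FARN and in no other line. Both entered the test only through 168FARN, so with unread values set to the floor a difference could only come out higher in 168FARN. The miR-34b-5p signal on the 168FARN arrays was 72.2, 64.2 and 46.7 units. It was 4.45, 4.999 and 2.47 units in 67NR, -0.0915, 0.337 and -1.94 units in 4TO7, and 0.283, 0.605 and 1.50 units in 4T1. Every 168FARN array lay above every other array.

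The miR-34b-5p level in 168FARN was -4.00 ± 0.13 (SD, n = 3), and it was at the floor on all other arrays. It was at least 1.77-fold higher in 168FARN than in 67NR (limma adjusted p = 4.38e-11). It was at least 2.63-fold higher than in 4TO7 (limma adjusted p = 1.05e-10) and at least 2.98-fold higher than in 4T1 (limma adjusted p = 1.22e-10). The bound is lowest against 67NR, whose arrays had the highest detection limits, -5.08 to -4.64 (log2).

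The signal of miR-34c on the 168FARN arrays was 58.0, 50.6 and 36.3 units. On the 67NR arrays it was 2.73, 2.66 and 1.46 units, and on those of 4TO7 and 4T1 it was -1.18, -1.40 and 0.884 units and -0.938, -0.461 and 1.15 units. The 168FARN arrays again lay above all 9 others. The 168FARN level was -4.34 ± 0.13 (SD, n = 3). miR-34c was at least 1.40-fold higher in 168FARN than in 67NR (limma adjusted p = 4.79e-10), at least 2.08-fold higher than in 4TO7 (limma adjusted p = 1.11e-09) and at least 2.35-fold higher than in 4T1 (limma adjusted p = 1.18e-09).

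Normexp background correction, which adds an offset of 50 units before scaling, turned the 67NR minus 168FARN difference of both miRNAs positive, to 0.25 for miR-34b-5p (limma adjusted p = 0.00555) and 0.34 for miR-34c (limma adjusted p = 3.97e-04). Under it the median of all tested miRNAs moved by 0.54 in that comparison, and the miR-34c differences of 168FARN from 4TO7 and 4T1 shrank to 0.16 and 0.17 (limma adjusted p = 0.0603 and 0.0617). Among pairs of lines without 168FARN neither miRNA was read on either side, and no fold is given.

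Some markers of other cell types were also read in 168FARN and in no other line. Of 4 haematopoietic markers 1, miR-142-3p, was read there, and the list's summed signal was 49.5 units in 168FARN against 11.6 to 11.9 in the other lines, with miR-150 near 0. Of 4 muscle markers 1, miR-206, was read there, and the sum was 34.9 units against -0.42 to 9.87. In 67NR, where miR-34a was highest, the endothelial sum was 119 units against 4.44 to 47.3 in the other lines, through miR-126-3p, the 1 of 2 markers read. That marker was not particular to 67NR: it was also read on all 3 arrays of 4TO7 and of 4T1, with mean signals of 23.5 and 41.6 units. The part of these cell types in the members' levels was not tested.

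miR-449a, whose gene lies within Cdc20b on chromosome 13, had another order of lines. Its signal was 28.1, 27.1 and 32.6 units on the 4TO7 arrays and 30.4, 25.9 and 17.3 units on the 168FARN arrays. It was 17.2, 18.6 and 11.8 units on the 4T1 arrays and 6.55, 8.76 and 5.61 units on the 67NR arrays. In unscaled signal 4TO7 and 168FARN overlapped, as did 168FARN and 4T1, and 67NR lay below all others.

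Scaling separated 4TO7 from the rest. The miR-449a level was -4.43 ± 0.07 (SD, n = 3) in 4TO7 and -5.33 ± 0.18 (SD, n = 3) in 168FARN, and it was at the floor in 4T1 and 67NR. miR-449a was 1.87-fold higher in 4TO7 than in 168FARN, a log2 difference of -0.90 ± 0.07 for 168FARN minus 4TO7 (SE, limma adjusted p = 3.70e-07). Without scaling this difference was -0.29 ± 0.18 (SE, limma adjusted p = 0.154), which ended the call.

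With every 67NR and 4T1 array at the floor, miR-449a could only come out lower there than in 4TO7 or 168FARN. The p-values of those pairs therefore carry no evidence on direction. In 4TO7 miR-449a was at least 1.32-fold higher than in 67NR (limma adjusted p = 2.59e-08) and at least 2.22-fold higher than the floor in 4T1 (limma adjusted p = 1.03e-07). In 168FARN it was at least 1.19-fold higher than the floor in 4T1 (limma adjusted p = 0.00941). The 67NR minus 168FARN difference of -0.25 ± 0.07 (SE, limma adjusted p = 0.00757) has no bound, since the lowest level that a 67NR array read lay above the 168FARN level. Doubling the floor set both small differences to 0. Normexp turned 67NR minus 168FARN to 0.62 (limma adjusted p = 1.26e-07) and 67NR minus 4TO7 to 0.15 (limma adjusted p = 0.0306). With the floor halved, miR-449a levels were -5.93 ± 0.24 (SD, n = 3) in 67NR and -6.06 ± 0.16 (SD, n = 3) in 4T1, a difference of 0.12 (limma adjusted p = 0.420).

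**Figure D3:**
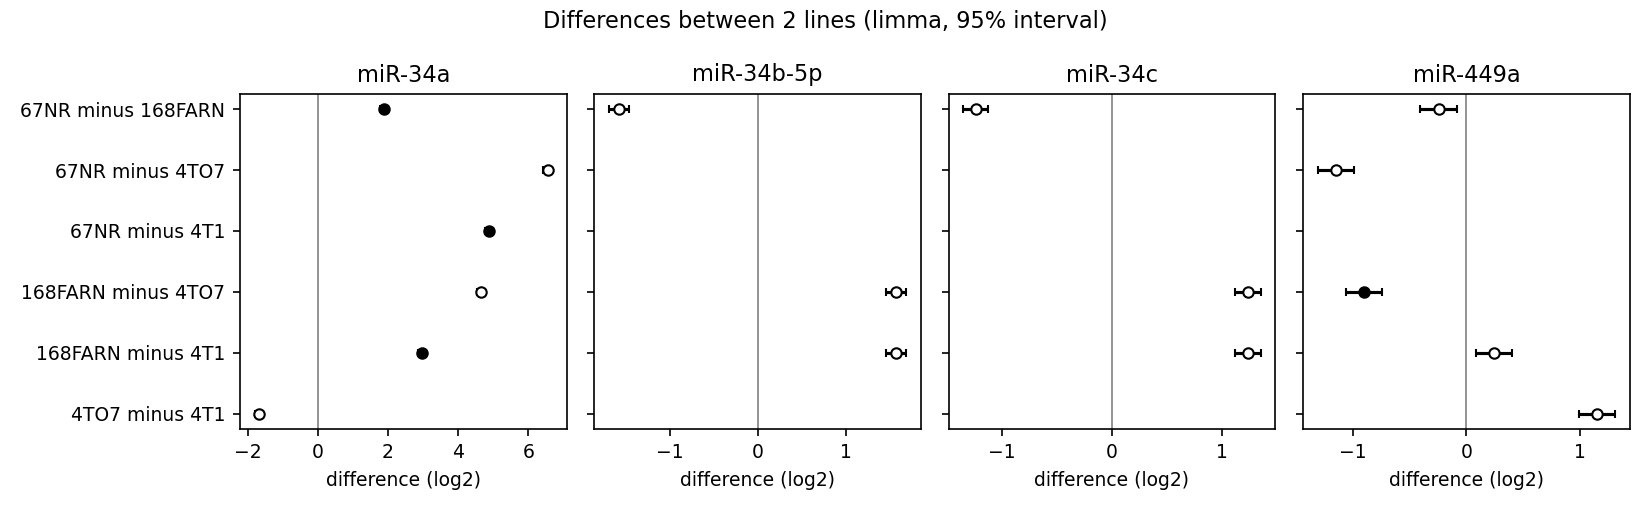
Difference of each member between 2 lines (horizontal axis, log2, a separate scale in each panel) with its 95% interval from limma, for each pair of lines (vertical axis). Filled points are pairs in which both lines were read on all arrays, open points pairs with 1 line not read on all arrays, and pairs read in neither are left out. miR-34a is above 0 in 5 pairs and below it in 4TO7 minus 4T1, while miR-34b-5p and miR-34c have points only in the 3 pairs with 168FARN.

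Each comparison of lines called many miRNAs, and the members' calls are read against that. In 67NR against 168FARN all 4 members passed, miR-34a higher and the other 3 lower, where 87.9% of all tested miRNAs passed, 47.8% higher and 40.2% lower. The arrays of these lines did not overlap for any member, nor for 86.6% of all. In 168FARN against 4T1 all 4 were higher in 168FARN, where 74.1% of all passed, 39.7% higher and 34.4% lower. No member's arrays overlapped, nor those of 76.8% of all.

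In 168FARN against 4TO7, miR-34a, miR-34b-5p and miR-34c were higher and miR-449a lower, where 74.6% of all passed, 39.3% higher and 35.3% lower. No member's arrays overlapped, nor those of 73.2% of all. Against a background this high, a count of 4 of 4 is not a result about the members. The filter had fixed the direction of miR-34b-5p and miR-34c, and the floor that of miR-449a against 67NR and 4T1. The miR-449a call in 67NR against 168FARN also has no bound.

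In the pairs without 168FARN fewer members passed. In 67NR against 4TO7 miR-34a was higher and miR-449a lower, where 79.9% of all passed, 48.2% higher and 31.7% lower, and 80.4% did not overlap. In 67NR against 4T1 miR-34a was higher and no member lower, where 79.5% of all passed, 47.3% higher and 32.1% lower, and 81.2% did not overlap. In 4TO7 against 4T1 miR-449a was higher and miR-34a lower, where 60.7% of all passed, 35.7% higher and 25.0% lower, and 67.9% did not overlap. The members that passed in these pairs were those whose arrays did not overlap.

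The metastatic line was then set against the mean of the 3 non-metastatic lines. miR-34b-5p, miR-34c and miR-449a were at the floor on all 4T1 arrays and were tested because other lines read them, so they could only come out lower in 4T1, and their counts and p-values carry nothing beyond the pairs of lines above. miR-34a, read in 4T1, was free to go either way, but its mean over the other lines takes in 4TO7 at the floor. The size of its difference therefore depends on the floor and is not a bound. All 4 differences were below 0, where 59.4% of all tested miRNAs were lower, 28.1% higher and 87.5% passed in either direction. The difference was -2.06 ± 0.04 for miR-34a (SE, limma adjusted p = 4.00e-12), -0.53 ± 0.04 for miR-34b-5p (SE, limma adjusted p = 2.81e-07), -0.41 ± 0.04 for miR-34c (SE, limma adjusted p = 2.71e-06) and -0.47 ± 0.06 for miR-449a (SE, limma adjusted p = 1.72e-05). For no member did the 4T1 arrays lie beyond all 9 others, as they did for 17.4% of all tested miRNAs. miR-34a was higher in 4T1 than in 4TO7, and miR-34b-5p and miR-34c were unread in 4T1, 67NR and 4TO7 alike.

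Without the 67NR arrays the miR-34a difference of 4T1 from the mean was -0.65 ± 0.04 (SE, limma adjusted p = 7.15e-07) and those of miR-34b-5p, miR-34c and miR-449a were -0.79, -0.62 and -0.70. The limma adjusted p of the 4 ran from 4.59e-07 to 1.08e-05. For the members at the floor in 4T1 a lower value was again the only possible direction, so miR-34a alone was free to change. With 67NR kept, doubling the floor left miR-34c at -0.0784 (limma adjusted p = 0.110) and miR-449a at -0.0500 (limma adjusted p = 0.0722).

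Each member's second probe had a target 1 base shorter. Only that of miR-34a was read in more than 1 line, and it gave the same order of lines. The second miR-34a probe read 399, 410 and 329 units in 67NR, 300, 264 and 203 units in 168FARN, 37.8, 39.8 and 29.6 units in 4T1, and 0.913, 0.751 and 2.49 units in 4TO7. On the 9 arrays where both were read, the brighter miR-34a probe exceeded the dimmer one 1.86-fold to 2.28-fold, a narrow range beside the differences between lines. The second miR-34b-5p probe read 42.5, 33.4 and 26.6 units in 168FARN.

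The dimmer probes of the other members were at the edge of detection. The second miR-34c probe read 23.4, 19.1 and 14.6 units in 168FARN and was read on 2 of those 3 arrays. Its scaled level was at the floor on all 3, and it did not pass the filter for testing. The second miR-449a probe was read on no array, so each call for miR-449a rests on 1 probe, as does each for miR-34c. Its unscaled signal was 14.0, 14.2 and 13.9 units in 4TO7, 13.2, 11.3 and 9.57 units in 168FARN, 7.33, 6.73 and 7.72 units in 4T1, and 2.53, 2.40 and 1.78 units in 67NR. The 4 lines did not overlap in that signal.

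**Figure D4:**
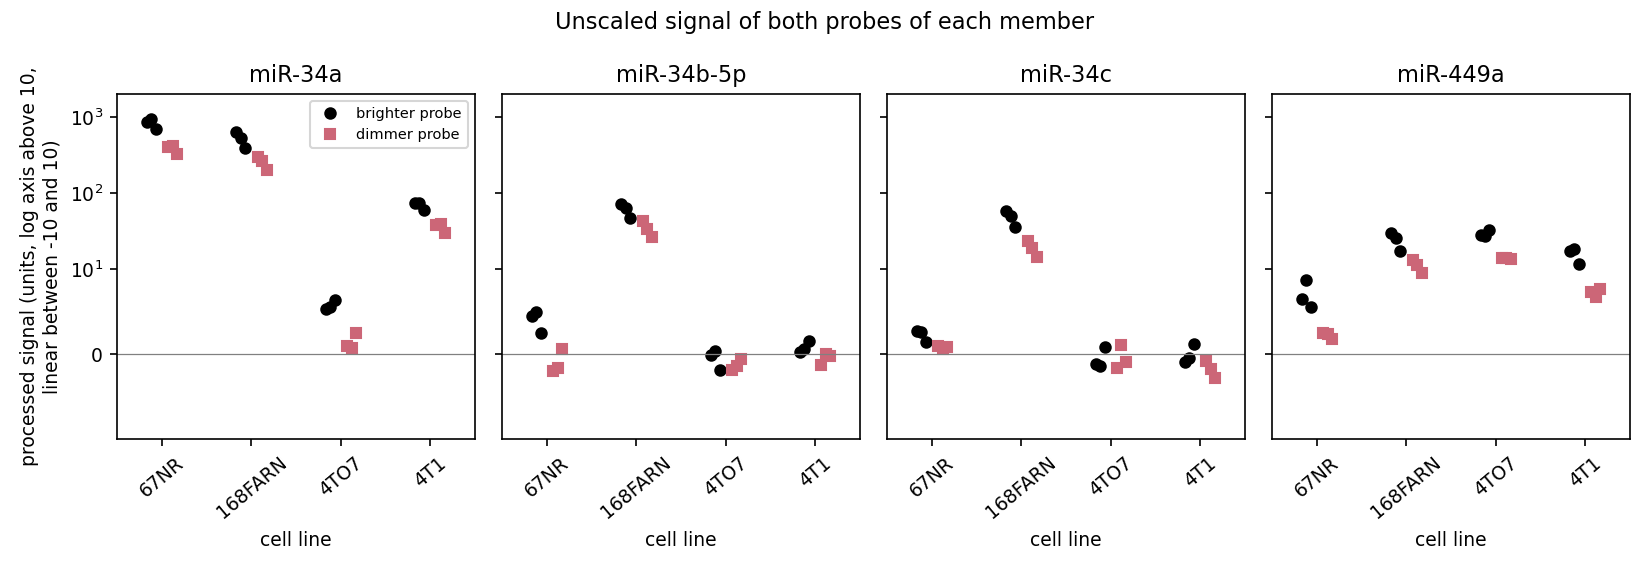
Unscaled processed signal of the brighter probe (circles) and the dimmer probe (squares) of each member, by cell line, on an axis that is logarithmic above 10 units and linear around 0. Each marker is 1 array. The dimmer miR-34a probe follows the brighter one in every line, from 329 to 410 units in 67NR down to 0.751 to 2.49 units in 4TO7.

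The other strands and relatives of the family that had probes were unread throughout. The opposite arm of miR-34a had no probe on the array. miR-34b-3p, the opposite arm of the precursor printed above, had a mean signal of 1.31 to 2.39 units per line, and that of miR-34c*, the opposite arm of miR-34c, lay between -1.48 and 3.08 units. The mean signals of miR-449b and miR-449c, which share the Cdc20b locus with miR-449a, lay between -1.87 and -0.52 units. In 168FARN, where miR-34b-5p and miR-34c were read, the mean was 2.39 units for miR-34b-3p and 3.08 units for miR-34c*, against lowest readable signals of 13.3 to 15.9 units on those arrays.

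The miRNAs most like each member were found by the root mean square gap between profiles over the 4 line means, each profile centred on its own mean. For miR-34a the nearest of 136 candidates were miR-374 (gap 1.47), miR-195 (1.48) and miR-185 (1.54). For miR-34b-5p the nearest of 220 were miR-881 (0.02), miR-742 (0.03) and miR-143 (0.12), and for miR-34c miR-470* (0.00409), miR-883a-5p (0.02) and miR-143 (0.03), all read in 168FARN only. miR-34b-5p and miR-34c were 0.15 apart. For miR-449a the nearest of 167 were miR-152 (0.07), miR-297c (0.16) and miR-297b-3p (0.17). With 1 line read and 3 at the floor, such a profile has a single free value.

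Other miRNAs linked to p53 gave a comparison for miR-34a. The list held 13 miRNAs reported as induced by p53 or as processed faster under it, of which 12 were on the array and 5 were tested. miR-107, a regulator of cell cycle and hypoxia genes, had a level of 1.75 in 67NR, -0.59 in 168FARN, -0.51 in 4TO7 and -0.07 in 4T1. miR-16, which represses Bcl2 and cyclins, had 2.47, 0.67, -0.06 and 0.30 in the same order. Both were highest in 67NR, as miR-34a was. miR-107 did not differ past the threshold between 168FARN and 4TO7 (-0.08 ± 0.05, SE, limma adjusted p = 0.161), and miR-16 was lowest in 4TO7.

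miR-192 and miR-194, which are transcribed together, were read in 67NR only, at -2.67 ± 0.07 and -4.14 ± 0.02 (SD, n = 3). They were at least 7.48-fold and 2.70-fold higher there than in 4T1 (limma adjusted p = 5.11e-15 and 8.68e-14). miR-143, whose processing p53 is reported to raise, was read in 168FARN only, at -4.28, and was at least 2.46-fold higher there than in 4T1 (limma adjusted p = 1.25e-09).

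These 3 entered the test only through the line that read them, so their direction was fixed by the filter, and no count over the list is read as a result. The other 7 miRNAs of the list on the array were not read on all 3 arrays of any line and were not tested. The 2 read in every line, miR-107 and miR-16, were higher in 67NR than in each other line. Against 168FARN they were 5.07-fold and 3.47-fold higher (limma adjusted p = 9.40e-13 and 5.51e-12), where 47.8% of all tested miRNAs were higher in 67NR. Against 4T1 they were 3.53-fold and 4.49-fold higher (limma adjusted p = 1.09e-11 and 1.19e-12), where 47.3% were. These folds depend on the scaling, and the gaps in unscaled signal were smaller. The mean miR-107 signal was 1418 units in 67NR, 647 in 168FARN and 989 in 4T1. For miR-16 it was 2339, 1562 and 1282 units in the same order.

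**Figure D5:**
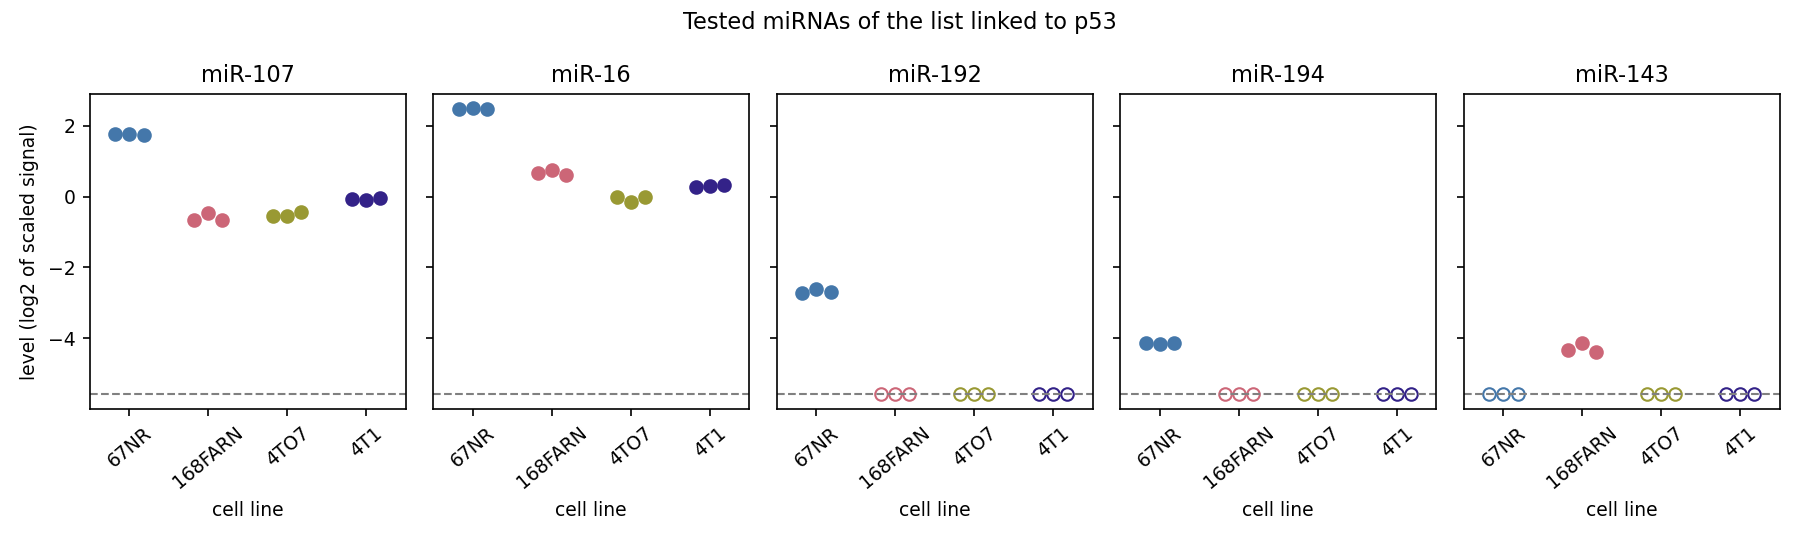
Level on each array (vertical axis, log2 of the scaled signal) of the 5 tested miRNAs from the list linked to p53, by cell line (horizontal axis). Points are arrays, filled where read and open where not, and the dashed line is the floor at -5.58. miR-107 and miR-16 are highest in 67NR, miR-192 and miR-194 are filled in 67NR only, and miR-143 in 168FARN only.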

How the data were processed

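The arrays were read with Feature Extraction (version 10.2.1.3). Its deposited intensity values are processed signals that, per the file headers, had a background subtracted and no scaling between arrays, and the series' value list equals them (largest difference 0). Per the labels, RNA was extracted with Trizol and 100 ng was labelled by the Agilent protocol.

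Control spots and 284 to 508 outlier spots per array were left out, and none was saturated. Spots were averaged per probe. Signals were scaled by the array's 75th percentile among 170 probes read on all 12 arrays, values below 0.0209 (log2 -5.58) were set to that floor, and log2 was taken. The brightest probe stood for a miRNA. The 224 miRNAs read on all 3 arrays of at least 1 line were tested with limma 3.58.1 in R 4.3.3, with 8 residual degrees of freedom and a two-sided Benjamini-Hochberg adjusted p below 0.05 within each comparison. The fit was tested on simulated data. Where a line was unread, the fold is a lower bound against the lowest level read on its arrays or, if higher, the miRNA's own floored level. An unread line sits at the floor without spread, which can make such p-values too small. Precision is limited by the 3 arrays of a line.

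The miRNAs named were the members, their relatives on the array, the list linked to p53, markers of other cell types, and the 3 profiles nearest to each member. Members and lists were chosen with earlier results of these data known. Of the 2 nervous system markers 1, miR-9, was read in each line, and the liver marker in none. Alternatives covered scaling, background, probe choice, floor, filter, slide, replicate number, arrays left out, lines fitted, variance model and outlier spots.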

Additional observations from a re-analysis of the deposited data

How the results depend on the processing

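Every miR-34a difference kept its direction and its call under all settings. Among 592 alternative values for the 4 members, 580 kept both, 8 lost the call and 4 turned direction. These values include the refits without 1 array. As reported, the filter had fixed the direction of miR-34b-5p and miR-34c, and the floor that of miR-449a against 67NR and 4T1. Many of their values therefore could hardly turn, and the 580 are not a measure of support. Settings in which a member was not tested, such as the second probe for miR-34c and miR-449a, were not counted as lost. Normexp turned 67NR minus 168FARN for miR-34b-5p (0.25), miR-34c (0.34) and miR-449a (0.62) and 67NR minus 4TO7 for miR-449a (0.15), and ended the calls of 168FARN minus 4TO7 (0.16) and minus 4T1 (0.17) for miR-34c and of 168FARN minus 4T1 for miR-449a (0). It moved the median of all tested miRNAs by 0.54 and 0.36 in 67NR minus 168FARN and minus 4TO7. The cause of the turned and lost calls was not tested. Doubling the floor ended the miR-449a calls of 67NR minus 168FARN and of 168FARN minus 4T1 (both 0) and the calls of 4T1 against the mean for miR-34c (-0.0784) and miR-449a (-0.0500), since those levels then lie at or near the floor. Without scaling, 168FARN minus 4TO7 for miR-449a was -0.29; the cause was not tested. Leaving out any 1 array ended no call; over these, 67NR minus 168FARN ranged from 1.85 to 1.95 for miR-34a and from -0.34 to -0.16 for miR-449a.

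Replicate numbers did not pair the arrays: same-numbered deviations correlated at -0.93 to 0.79, over 0.1 in 6 of 18 pairs, and 2 of 12 arrays correlated best with their own number. With the replicate block, 67NR minus 168FARN for miR-34a stayed 1.90 (limma adjusted p = 7.90e-10), no member's call changed, and 194 miRNAs passed in that comparison against 197 without it. Scaling moved the split of calls over all miRNAs. 4T1 against the mean had 63 higher and 133 lower as reported, 111 and 66 without scaling, 93 and 98 with the percentile of all probes, 88 and 111 with quantile normalization, and 38 and 169 with normexp. 67NR against 168FARN had 107 and 90 as reported, 72 and 107 without scaling, and 156 and 50 with normexp. The test of ratios between members within an array was not run, as no pair of members was read on all 3 arrays in more than 1 line. The lowest signal read was 12.6 to 18.5 units per array, and lower levels were not detectable.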
